A study of Homo sapiens with 12 samples.

Results

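The genes of fatty acid oxidation and of the peroxisome were followed in 3 liver cancer cell lines treated with an mTOR inhibitor, an SHP2 inhibitor or both. They were chosen by name from a list of 46 genes, and 44 of these were among the 11548 genes of the table. BDH1 and PDK4 were not analysed here. The 44 genes fall into 19 genes of mitochondrial oxidation, 6 genes of fatty acid activation and uptake, 17 genes of the peroxisome, ACAT1 for ketone synthesis and PLIN2 for the lipid droplet. The table itself held genes whose mean log2 value over the libraries was at least 4.65, so that a gene with high values in 1 cell line only could be in it.

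RNA was sequenced from Hep3B, MHCC97H and Huh7, established human hepatocellular carcinoma (HCC) lines with no engineered allele, each with 4 treatments and 1 library per treatment, 12 in all. Cells were untreated, or received 100 nM AZD8055, an inhibitor of the mTOR kinase, compound #57, an allosteric inhibitor of the phosphatase SHP2, or AZD8055 with 5 µM compound #57 (combination). The dose of compound #57 given alone is not stated in the sources used here. Hep3B and Huh7 were exposed for 48 h and MHCC97H for 24 h, and where MHCC97H stood apart, its identity and its shorter exposure cannot be told apart. Levels are log2(reads per 10000000 + 1), the libraries held 10659951 to 15957252 reads, and a difference of 1 on this scale is 2-fold. With 1 library per line and treatment, no value has a replicate within a line, and the tests below compare the treatments over the 3 lines. The comparisons share libraries: every treatment is set against the same untreated library of its line, and each combination library enters 3 comparisons.

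Of the hepatocyte markers, 10 of 10 were in the table, and they did not stand at a like level in the 3 lines. ALB, the main plasma protein of the liver, lay between 16.87 and 18.62 in Hep3B and between 14.54 and 16.22 in Huh7, but between 7.16 and 9.52 in MHCC97H. TTR was at 0 in 2 of the 4 MHCC97H libraries and at most 1.64 in the others, and APOA1, APOA2 and SERPINA1 stayed at or under 4.16 in that line. HNF4A, a transcription factor of hepatocytes, was at least 9.22 in every library. The epithelial keratins KRT8 and KRT18 were at least 14.10 and 13.37. The other epithelial markers, EPCAM and CDH1, were lower in MHCC97H. EPCAM was 2.17 to 3.34 there, 11.66 to 12.36 in Hep3B and 8.54 to 10.07 in Huh7. CDH1 was 7.62 to 8.87 in MHCC97H, 9.47 to 11.42 in Hep3B and 9.26 to 10.65 in Huh7. Of the fibroblast markers 3 of 5 were in the table (COL1A1, COL1A2 and PDGFRB, all higher in the Huh7 libraries than in MHCC97H), of the endothelial markers only PECAM1, which was highest in MHCC97H (8.16 to 9.08), and of the leukocyte markers 0 of 3. The part of these marker differences in the differences between lines given below was not tested.

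Fatty acids are activated to acyl-CoA before they are burnt. Long-chain acyl-CoA then enters the mitochondrion through the carnitine shuttle, where CPT1A sets the pace, and the acyl-CoA dehydrogenases and later enzymes of the spiral cut it into acetyl-CoA while ETFA, ETFB and ETFDH pass the electrons on. Very long and branched chains are first shortened in the peroxisome, an organelle built by the peroxins, and in the liver acetyl-CoA can leave as ketone bodies. Many of these genes are known targets of the nuclear receptor PPARA.

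Promoter sequences are shown for ACOX3, CPT1A and ACAD10. The level of ACOX3 passed the test in 3 of the 5 treatment comparisons, as did that of HSD17B4, which is not shown. CPT1A had the largest difference between the combination and untreated cells among the 44 genes. ACAD10 is an acyl-CoA dehydrogenase gene that passed the test with the combination. Among the genes that passed in a treatment comparison, a match to the motifs below was found only in ACOX3 and ACAD10. ACOX3 (chr4:8366282-8440723, minus strand) and CPT1A (chr11:68754620-68844410, minus strand) lie on the reverse strand of hg38, and ACAD10 (chr12:111686053-111757107) on the forward strand. Each sequence is the 250 bases before a transcription start, from RefSeq on GRCh38.p14, 5′ to 3′ on the strand of the gene, with a match to 1 of the searched motifs in capitals:
ACOX3, chr4:8440724-8440973, minus strand: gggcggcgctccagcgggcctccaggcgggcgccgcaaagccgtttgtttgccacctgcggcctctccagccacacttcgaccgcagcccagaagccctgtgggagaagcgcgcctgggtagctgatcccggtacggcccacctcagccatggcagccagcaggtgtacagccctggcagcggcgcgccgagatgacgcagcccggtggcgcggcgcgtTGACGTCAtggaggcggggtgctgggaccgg
ACOX3, second start, chr4:8428449-8428698, minus strand: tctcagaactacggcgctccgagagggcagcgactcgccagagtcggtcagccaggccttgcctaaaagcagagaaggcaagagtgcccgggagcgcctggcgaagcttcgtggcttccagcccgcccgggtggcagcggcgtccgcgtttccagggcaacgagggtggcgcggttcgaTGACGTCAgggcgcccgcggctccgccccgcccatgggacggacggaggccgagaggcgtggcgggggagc
CPT1A, chr11:68844278-68844527, minus strand: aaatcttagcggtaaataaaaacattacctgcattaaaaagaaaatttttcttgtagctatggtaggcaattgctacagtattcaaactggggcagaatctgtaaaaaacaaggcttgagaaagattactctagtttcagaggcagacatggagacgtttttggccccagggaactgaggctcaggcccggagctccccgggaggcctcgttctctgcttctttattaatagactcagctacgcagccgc
ACAD10, chr12:111685803-111686052, plus strand: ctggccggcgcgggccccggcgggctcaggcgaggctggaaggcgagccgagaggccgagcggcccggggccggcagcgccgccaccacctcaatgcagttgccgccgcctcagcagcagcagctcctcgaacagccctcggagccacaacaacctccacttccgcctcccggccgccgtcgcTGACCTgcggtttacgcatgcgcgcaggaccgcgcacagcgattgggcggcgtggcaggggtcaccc
The capitals mark TGACGTCA, the full CRE motif, in both ACOX3 windows, and in ACAD10 the reverse complement of AGGTCA. The 4 motifs searched on both strands, in windows from 250 bases before to 50 after each start, were AGGTCA (a nuclear receptor half-site), DR1 (AGGTCA repeated in the same direction 1 base apart, which holds AGGTCA itself), CACGTG (the E-box and CLEAR core) and TGACGTCA.

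Of the 44 genes, 38 had at least 1 RefSeq promoter window, 54 windows in all. TGACGTCA was found in ACOX3, in both windows at bases -31 and -71 from the start, and in ACAD9 at -158, that is in 2 of 38 genes, and 1.85% of all 35116 windows held it. AGGTCA was found in ACAD10 at -67 and in ACSL5 at -223, against 13.8% of all windows. CACGTG was found in ACAD9 and, at -69, in PLIN2, against 7.26% of all windows. DR1 was found in 0 of the 38 genes and in 0.0228% of all windows, and CPT1A held none of the 4 motifs. The members are counted as genes, each with at least 1 window, and the background by window, so the shares are not like measures. All are matches of letters in short windows and no measurement of binding.

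Per transcript length, ACSL4, PLIN2 and ACSL3 stood highest in untreated cells by the mean of the 3 lines. ACSL4, which activates arachidonic and other polyunsaturated acids, had 2729 reads per kb per 10000000 reads in Hep3B, 1703 in Huh7 and 307 in MHCC97H. PLIN2, which coats lipid droplets, had 2060, 1130 and 514 in the same order, and ACSL3, the acyl-CoA synthetase of lipid droplets and the endoplasmic reticulum, 1732, 1137 and 583. ACADVL, the dehydrogenase of very long chains, followed with 1720, 626 and 875, and ECHS1, the enoyl-CoA hydratase, with 1081, 920 and 653. The lowest mean levels per kb were those of SLC27A5, a bile acid and fatty acid CoA ligase (16.8, 2.19 and 31.2), and PEX11A, which takes part in peroxisome division (23.6, 17.1 and 27.0).

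**Figure D1:**
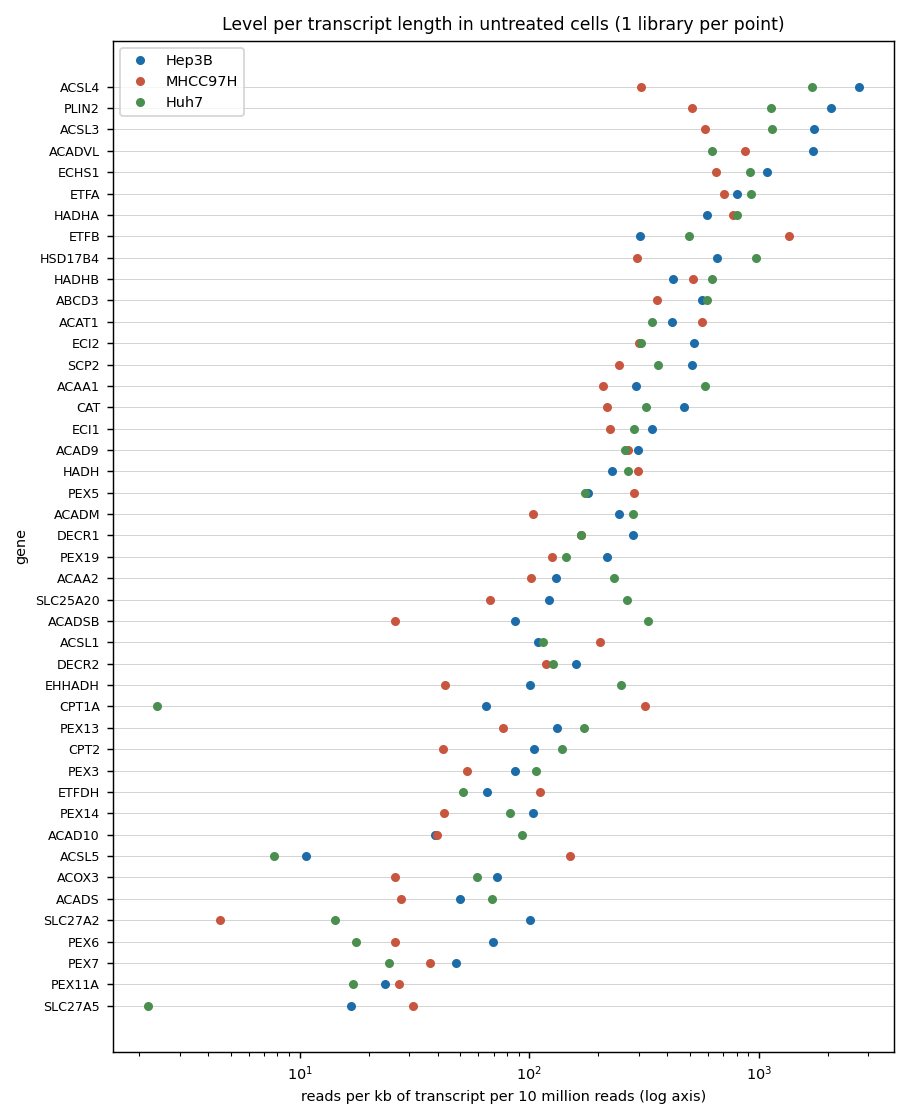
Level of each of the 44 genes in untreated cells, in reads per kb of transcript per 10000000 reads on a log axis, with 1 point per cell line (1 library each) and genes ordered by their mean. ACSL4 is highest and SLC27A5 lowest by mean, and CPT1A spans 2.39 in Huh7 to 318 in MHCC97H.

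Between cell lines, CPT1A differed most widely of the 44 genes. Over the 4 libraries of a line, its log2 level was 11.17 ± 0.33 (SD, n = 4) in MHCC97H, 9.69 ± 1.06 in Hep3B and 5.85 ± 1.65 in Huh7, where untreated cells gave 20 reads. The ranges of MHCC97H (10.70 to 11.49), Hep3B (8.41 to 10.69) and Huh7 (3.76 to 7.79) did not overlap. The difference was 5.32 (SE 0.44, adjusted p = 2.5e-06, limma) between MHCC97H and Huh7 and 1.48 (SE 0.44, adjusted p = 0.0127) between MHCC97H and Hep3B, while Huh7 was lower than Hep3B by a log2 difference of -3.84 (SE 0.44). In these line comparisons the 4 treatments of a line serve as its libraries, so that the p-values measure the spread across treatments.

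Between MHCC97H and Hep3B, 10 of the 44 genes were higher in MHCC97H (22.7%, against 29.2% of all genes tested) and 26 lower (59.1%, against 38.6%). The peroxisome took up 13 of these 26: only PEX5, the import receptor for peroxisomal enzymes, and PEX11A were higher in MHCC97H among 17 peroxisome genes. Peroxisome genes outside the list went both ways. Of 7 such peroxins, 3 were higher and 1 lower, and of 20 enzymes and transporters, 6 were higher and 10 lower. Mitochondrial genes of the list also went both ways, with 6 higher and 10 lower of 19. ETFB, a subunit of the electron transfer flavoprotein, was 10.30 ± 0.17 in MHCC97H and 8.55 ± 0.34 in Hep3B, with no overlap of the 4 libraries each (difference 1.75, SE 0.14, adjusted p = 2.55e-06). The median difference was -0.53 over the 44 genes and -0.13 over all genes.

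Between MHCC97H and Huh7, 11 of 44 were higher in MHCC97H (25%, against 33.8% of all genes) and 18 lower (40.9%, against 36.4%). Between Huh7 and Hep3B, 11 were higher in Huh7 (25%, against 24.5%) and 13 lower (29.5%, against 30.7%), shares close to those of all genes. ACADSB, which dehydrogenates short branched acyl-CoA, was lowest in MHCC97H (7.88 ± 0.50), intermediate in Hep3B (9.30 ± 0.71) and highest in Huh7 (10.80 ± 0.53), and the difference of -2.91 between MHCC97H and Huh7 was the lowest of that comparison. ACAA1, the peroxisomal thiolase, was also highest in Huh7 (10.19 ± 0.40) and lowest in MHCC97H (8.48 ± 0.16), by -1.70 (SE 0.15). SLC25A20, the carnitine carrier of the inner membrane, followed the same order, at 8.69 ± 0.60 in Huh7, 7.91 ± 0.39 in Hep3B and 6.81 ± 0.38 in MHCC97H, while ACAT1 was highest in MHCC97H, at 9.92 ± 0.23 against 9.23 ± 0.12 in Hep3B and 8.98 ± 0.24 in Huh7.

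The activation and uptake genes split by line. ACSL5, an acyl-CoA synthetase of mitochondria and the endoplasmic reticulum, was 9.30 ± 0.38 in MHCC97H against 5.01 ± 1.13 in Hep3B and 4.66 ± 0.44 in Huh7, a difference of 4.29 (SE 0.40) and 4.64 (SE 0.40) to the 2 lines. SLC27A2, a transporter and synthetase of very long chains, had its highest level in Hep3B (7.36 ± 0.61), above Huh7 (5.09 ± 0.90) and MHCC97H (4.32 ± 0.71). The last 2 lines overlapped, and their difference of -0.77 did not pass the test. SLC27A5 was low in Huh7, with 7 to 9 reads per library, and its log2 level there was 2.86 ± 0.23 against 5.87 ± 0.24 in MHCC97H. PLIN2 ran from 12.41 ± 0.50 in Hep3B through 11.26 ± 0.30 in Huh7 to 9.53 ± 0.31 in MHCC97H with no overlap. PEX6, an ATPase that recycles PEX5, had a level of 8.29 ± 0.28 in Hep3B, above MHCC97H (7.06 ± 0.58) and Huh7 (5.97 ± 0.46), and the difference of -2.32 between Huh7 and Hep3B had an adjusted p of 5.1e-05.

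The 44 genes together took 0.544% of the reads in untreated Hep3B, 0.450% in untreated Huh7 and 0.286% in untreated MHCC97H. In Hep3B the share of the activation and uptake genes was 0.237% in untreated cells, 0.188% with AZD8055, 0.106% with compound #57 and 0.0743% with the combination. In Huh7 it was 0.152%, 0.101%, 0.101% and 0.0592% in the same order, and in MHCC97H it stayed between 0.0608% and 0.0709%. ACSL3 and ACSL4 make up most of these reads. The mitochondrial share moved within 0.120% and 0.188% over the 12 libraries.

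AZD8055 was compared with untreated cells to see how these genes stood under inhibition of mTOR. Over the 3 lines, ACOX3 rose and HSD17B4 fell, and no other of the 44 genes passed the test. ACOX3, the peroxisomal oxidase of branched chains, and HSD17B4, the peroxisomal bifunctional enzyme that carries out the next steps, act in the same pathway. In the order untreated, AZD8055, compound #57 and combination, ACOX3 stood at 7.71, 8.16, 8.51 and 8.99 in Hep3B, at 6.24, 7.09, 6.80 and 7.80 in MHCC97H and at 7.42, 8.67, 8.26 and 9.11 in Huh7. In each line the untreated library was lowest and the combination highest. HSD17B4 stood at 10.76, 10.27, 10.77 and 9.94 in Hep3B, at 9.59, 9.12, 9.86 and 9.19 in MHCC97H and at 11.32, 10.41, 11.21 and 10.60 in Huh7. Both libraries with AZD8055 lay below both without it in every line.

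The fitted change with AZD8055 was 0.85 for ACOX3 (SE 0.17, adjusted p = 0.0390, limma) and -0.62 for HSD17B4 (SE 0.13, adjusted p = 0.0397), the same direction in 3 of 3 lines each. This is 1 of 44 genes higher (2.27%, against 2.21% of all genes tested) and 1 lower (2.27%, against 0.753%). Of the 44, 12 had an unadjusted p under 0.05 (27.3%, against 27.4% of all genes). Neither gene passed with Hep3B, MHCC97H or Huh7 left out, which leaves 3 residual degrees of freedom, nor without the term for cell line. Of all genes, 0.00866%, 0.944% and 0% passed with these lines left out, and 0 passed without the term. Without MHCC97H, CAT passed instead, at -0.94 (2.27% of the 44, against 0.944% of all genes). Over all genes 342 passed, 74.6% of them higher, a share that became 54.1% of 473 when each library was centred on its median.

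Counted by line, with AZD8055 6 of 44 genes were higher in all 3 lines (13.6%, against 28.4% of all genes) and 14 were lower (31.8%, against 25.7%). Higher in all were CPT1A, ACOX3, ACADS, ACAD10, ACAA2 and ETFB, 5 of them mitochondrial, and lower in all were 7 mitochondrial genes, 6 peroxisomal genes and ACAT1. With each library centred on its median, 5 were higher (11.4%, against 25.8% of all genes) and 16 lower (36.4%, against 28.8%). HADH, which oxidizes hydroxyacyl-CoA, differed from untreated cells by -0.58 in Hep3B, -0.43 in MHCC97H and -0.59 in Huh7, and PEX3, which anchors new peroxisomal membrane proteins, by -0.75, -0.41 and -0.45. Both missed the test (adjusted p = 0.0723 and 0.0729). ACAT1, which makes acetoacetyl-CoA, differed by -0.25, -0.09 and -0.41 (adjusted p = 0.214).

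The median change with AZD8055 over the 44 genes stood at -0.13 in Hep3B, 0.15 in MHCC97H and -0.33 in Huh7, where the median over all genes was 0.02, 0.05 and -0.02. For mitochondrial oxidation it was -0.01, 0.17 and -0.25, and for the peroxisome -0.29, 0.19 and -0.25. The fitted median for mitochondrial oxidation was -0.05, and it became 0.07 with Huh7 left out. The medians of MHCC97H, the line with the shorter exposure, were thus above 0 in both groups. Those of Hep3B and Huh7 were below 0 for the peroxisome, while for mitochondrial oxidation Huh7 was below 0 and Hep3B about at 0. Of the 10 hepatocyte markers, 5 were lower and 1 higher with AZD8055 in all 3 lines, and 0 passed. In reads per 10000000, their summed level went from 396277 to 246920 in Hep3B and from 435308 to 340101 in Huh7. In MHCC97H it went from 1450 to 1433. The part of these markers in the result was not tested. The largest changes below untreated cells were in Huh7. There CAT, which breaks down hydrogen peroxide, differed by -1.13 (95% counting interval -1.29 to -0.96), EHHADH, the other peroxisomal bifunctional enzyme, by -1.16 (-1.30 to -1.01) and SLC27A2 by -1.13 (-2.04 to -0.39).

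CPT1A was higher with AZD8055 by 0.83 (0.65 to 1.02) in Hep3B, by 0.51 (0.43 to 0.59) in MHCC97H and by 2.32 (1.69 to 3.19) in Huh7, where it went from 20 to 80 reads. Its fitted change of 1.22 (SE 0.51) did not pass the test (adjusted p = 0.155). Whether the response of MHCC97H differed from the mean of the other 2 lines was tested by an interaction term, which 0 of the 44 genes passed, against 0.0173% of all genes. Of the 44, 9 had an unadjusted p under 0.05 (20.5%, against 11% of all genes), led by EHHADH (difference 1.46, SE 0.36, adjusted p = 0.243) and CAT (1.03, SE 0.27, adjusted p = 0.258).

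Compound #57 alone was set against untreated cells to see the effect of the SHP2 inhibitor on the same genes. No gene of the 44 passed the limma test, higher (against 0.00866% of all genes) or lower (against 0%). An unadjusted p under 0.05 was reached by 16 genes (36.4%, against 21.7% of all genes), and 0 passed in voom on whole reads. The smallest adjusted p was that of ACOX3 (0.0912), at a change of 0.74 (SE 0.17). Without MHCC97H, ACADS, ACADSB, ACAA2 and CAT passed (9.09% of the 44, against 6.74% of all genes).

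More of the genes stood above untreated cells than below them with compound #57. Of the 44 genes, 24 were higher in all 3 lines (54.5%, against 30.6% of all genes) and 3 were lower (6.82%, against 19.7%), namely ACSL3, PEX14 and PEX19. Among mitochondrial genes 13 of 19 were higher in all lines and 0 lower, and among peroxisome genes 9 of 17 were higher and 2 lower. With each library centred on its median the counts became 19 higher and 6 lower of 44, against 23.6% and 29.3% of all genes. The 3 comparisons of 1 line each use an untreated library that no other line shares. The hepatocyte markers moved alongside: 6 of 10 were higher in all 3 lines and 0 lower, 0 passed the test, and their summed level in reads per 10000000 went from 396277 to 619754 in Hep3B, from 435308 to 517579 in Huh7 and from 1450 to 3178 in MHCC97H. ALB was higher by 1.04, APOA1 by 1.66 and FGB by 2.31, while APOB differed by -0.56 and APOA2 by 0.01. Of the epithelial markers, CDH1 was higher by 0.96 and KRT18 differed by -0.02. The part of the markers in the difference was not tested.

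ACADS, the dehydrogenase of short chains, was higher by 0.98 in Hep3B, 0.67 in MHCC97H and 1.03 in Huh7 (adjusted p = 0.106), and CAT by 0.74, 0.67 and 0.81 (adjusted p = 0.156). PEX11A was higher by 0.64, 0.64 and 1.05 (adjusted p = 0.116). CPT1A was higher by 2.29 (2.13 to 2.45) in Hep3B, 0.56 (0.48 to 0.65) in MHCC97H and 2.02 (1.37 to 2.90) in Huh7. ACSL3 went the other way and unevenly, by -2.47 (-2.53 to -2.41) in Hep3B, -0.01 (-0.07 to 0.06) in MHCC97H and -0.80 (-0.85 to -0.75) in Huh7. ACAT1 differed by -0.01, 0.35 and 0.13 (Hep3B, MHCC97H and Huh7). The intervals are exact Clopper-Pearson intervals of the ratio of reads and cover counting error only.

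By line, the median change with compound #57 stood at 0.17 in Hep3B, 0.26 in MHCC97H and 0.16 in Huh7 over the 44 genes, and 0.01, 0.08 and 0.03 over all genes. Mitochondrial oxidation had 0.23, 0.29 and 0.24, and the peroxisome 0.05, 0.25 and 0.15. The interaction test of MHCC97H against the other lines was passed by 0 of 44 genes, against 0% of all genes, and 4 of the 44 had an unadjusted p under 0.05 (9.09%, against 7.76% of all genes), namely ACSL4, PLIN2, ACAA2 and ACSL3, the smallest adjusted p being 0.435.

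**Figure D2:**
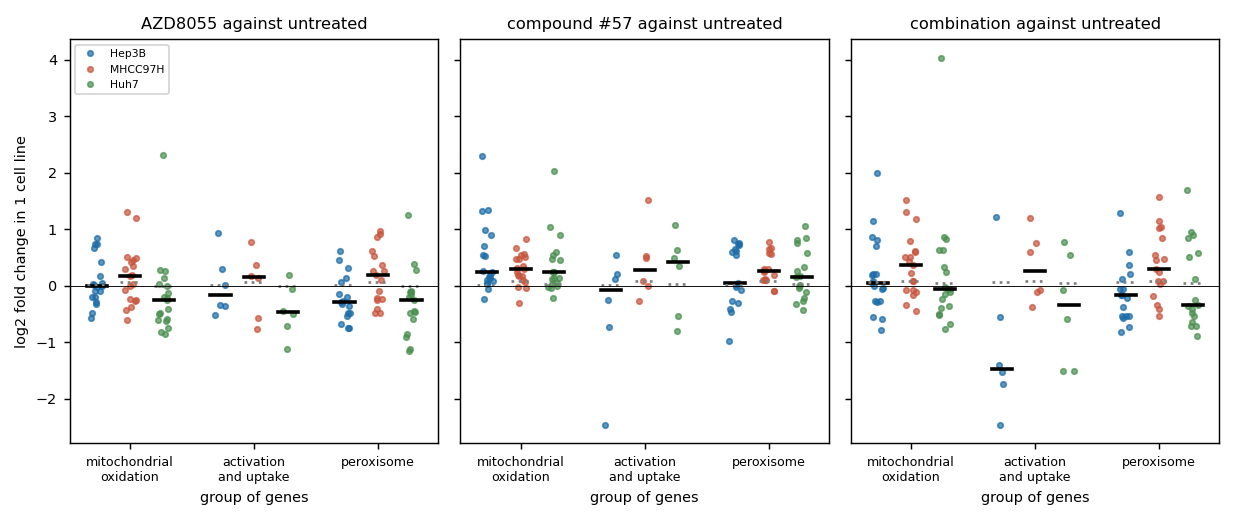
Log2 fold changes within each cell line for the 19 mitochondrial oxidation genes, the 6 activation and uptake genes and the 17 peroxisome genes, for each treatment against untreated cells. Each point is a gene in 1 line (1 library against 1), the black bar is the median of the group and the dotted grey bar the median of all genes in that line. With compound #57 the mitochondrial medians lie above the grey bars in 3 of 3 lines, and with the combination the activation and uptake median of Hep3B is -1.47.

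The combination was set against untreated cells to see whether these genes changed when both targets were inhibited. Over the 3 lines, 7 of the 44 genes rose (15.9%, against 20.9% of all genes) and 5 fell (11.4%, against 15.1%), so that the share that passed was no higher than among all genes. In mitochondrial oxidation CPT1A, ACADS, ACAD10 and ACAA2 rose and ETFA fell, in activation and uptake ACSL3 fell, and in the peroxisome ACOX3, DECR2 and PEX11A rose while HSD17B4, ABCD3 and PEX3 fell. ACAT1 and PLIN2 did not pass. Of all genes, 4154 passed, 58% of them higher, or 47.2% of 4222 with centred libraries, under which 10 of these 12 genes still passed. Among the markers, FGB (2.28), HNF4A (0.84), KRT8 (0.44) and COL1A1 (2.15) rose with the combination and APOB fell (-1.47). The summed level of the hepatocyte markers went from 396277 to 283407 reads per 10000000 in Hep3B and from 435308 to 405438 in Huh7. In MHCC97H it went from 1450 to 3473. The part of these markers was not tested.

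Among the mitochondrial genes, CPT1A had the largest change. It stood at 8.41, 9.24, 10.69 and 10.40 in Hep3B (untreated, AZD8055, compound #57 and combination), at 10.70, 11.21, 11.27 and 11.49 in MHCC97H and at 3.76, 6.08, 5.78 and 7.79 in Huh7. The untreated library was lowest in each line, and in Hep3B the combination lay below compound #57 alone. The fitted change with the combination was 2.27 (SE 0.51, adjusted p = 0.00979), made up of 2.0 in Hep3B, 0.78 in MHCC97H and 4.03 (3.48 to 4.87) in Huh7, and in Huh7 the reads went from 20 to 256. With 10 in place of 1 added before the log, the Huh7 value was 3.35.

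ACADS stood at 6.55, 7.22, 7.53 and 7.42 in Hep3B, at 5.71, 6.90, 6.38 and 7.23 in MHCC97H and at 7.01, 7.26, 8.04 and 7.83 in Huh7. It was lowest in untreated cells in 3 of 3 lines, and the change was 1.07 (SE 0.24, adjusted p = 0.00988). ACAD10, whose product is an acyl-CoA dehydrogenase with an added kinase-like domain, stood at 7.29, 8.03, 8.18 and 8.09 in Hep3B, at 7.32, 8.62, 7.82 and 8.62 in MHCC97H and at 8.54, 8.67, 9.13 and 9.18 in Huh7. Its change was 0.91 (SE 0.23, adjusted p = 0.0148). Unnamed genes overlap exons of ACAD10, ACAA2 and PEX3 on the same strand, as FAM170A does for HSD17B4, NME4 for DECR2 and KCNE5 for ACSL4, and how the reads were assigned to overlapping genes is not given in the sources used here.

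ACAA2, the thiolase of the last step, stood at 8.59, 8.60, 9.91 and 9.74 in Hep3B, at 8.22, 8.56, 8.28 and 8.82 in MHCC97H and at 9.42, 9.69, 10.32 and 10.28 in Huh7. In Hep3B and Huh7 both libraries with compound #57 were above both without it, while in MHCC97H the libraries with AZD8055 were higher, and the change was 0.87 (SE 0.24, adjusted p = 0.0211). ETFA stood at 10.85, 10.36, 10.60 and 10.06 in Hep3B, at 10.66, 10.39, 10.61 and 10.21 in MHCC97H and at 11.05, 10.56, 11.10 and 10.36 in Huh7. The combination was lowest in every line, and the change was -0.64 (SE 0.11, adjusted p = 0.00406). The other 14 mitochondrial genes did not pass, among them ACADVL (0.15), HADHB (0.13), the small subunit of the trifunctional protein, and ETFDH (-0.28).

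Of the activation genes, ACSL3 stood at 13.24, 12.88, 10.77 and 10.77 in Hep3B, at 11.67, 11.80, 11.66 and 11.55 in MHCC97H and at 12.63, 12.19, 11.83 and 11.11 in Huh7. In Hep3B the libraries with compound #57 lay far below the others, and in MHCC97H the 4 libraries lay close together. The change was -1.37 (SE 0.43, adjusted p = 0.0343), made up of -2.46 in Hep3B, -1.52 in Huh7 and -0.11 in MHCC97H. ACSL3-AS1 overlaps its exons on the other strand. ACSL4 stood at 13.70, 13.37, 12.97 and 12.17 in Hep3B, at 10.55, 10.72, 11.03 and 11.31 in MHCC97H and at 13.02, 12.31, 12.48 and 11.51 in Huh7. With the combination it was thus lower by -1.53 (-1.58 to -1.49) in Hep3B and -1.51 (-1.56 to -1.46) in Huh7, and higher by 0.76 (0.68 to 0.84) in MHCC97H.

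The difference of 2.28 (SE 0.28) between the response of ACSL4 in MHCC97H and the mean of the other 2 lines passed the interaction test (adjusted p = 0.0381, limma). It was the 1 gene of 44 to do so (2.27%, against 0.944% of all genes in either direction), in a fit with 3 residual degrees of freedom, and 13 of the 44 had an unadjusted p under 0.05 (29.5%, against 16% of all genes). PLIN2 came next, with a difference of -1.51 (SE 0.29, adjusted p = 0.0614). Its level with the combination differed from that of untreated cells by 1.07 (1.02 to 1.12) in Hep3B, -0.66 (-0.80 to -0.53) in MHCC97H and 0.63 (0.56 to 0.70) in Huh7. EHHADH differed by -0.07 in Hep3B, 1.03 in MHCC97H and -0.89 in Huh7 (interaction adjusted p = 0.103).

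SLC27A2 differed in opposite directions in Hep3B and MHCC97H, and that contrast between lines was not tested. It stood at 7.91, 7.38, 7.64 and 6.49 in Hep3B, at 3.56, 3.91, 5.07 and 4.75 in MHCC97H and at 5.12, 4.0, 6.20 and 5.04 in Huh7. With the combination it was lower by -1.41 (-1.76 to -1.10) in Hep3B and higher by 1.19 (0.32 to 2.29) in MHCC97H, on 14 and 32 reads, and differed by -0.09 in Huh7. With compound #57 alone it was higher in MHCC97H by 1.51 and in Huh7 by 1.07. ATP8B4 overlaps its exons on the other strand. ACSL5 was lower by -1.74 (-2.91 to -0.86) in Hep3B, on 37 and 12 reads, and higher by 0.60 (0.45 to 0.75) in MHCC97H. ACSL1, a synthetase of liver and fat tissue, was higher by 1.21 in Hep3B and 0.76 in Huh7 and differed by -0.07 in MHCC97H.

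Among the peroxisome genes, the change of ACOX3 with the combination was 1.51 (SE 0.17, adjusted p = 0.00169), from 1.28 in Hep3B to 1.56 in MHCC97H and 1.70 in Huh7, and that of HSD17B4 was -0.65 (SE 0.13, adjusted p = 0.00621). DECR2, a reductase for double bonds in the peroxisome, stood at 7.95, 8.08, 8.50 and 8.31 in Hep3B, at 7.53, 8.44, 8.11 and 8.37 in MHCC97H and at 7.63, 7.38, 8.38 and 8.47 in Huh7. Its change of 0.68 (SE 0.23) was near the threshold (adjusted p = 0.0467). PEX11A stood at 6.02, 5.74, 6.66 and 6.13 in Hep3B, at 6.21, 6.40, 6.85 and 7.25 in MHCC97H and at 5.57, 5.95, 6.62 and 6.46 in Huh7, so that in Hep3B the combination lay close to untreated cells. The change was 0.68 (SE 0.22, adjusted p = 0.0369).

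ABCD3, a transporter of acyl-CoA into the peroxisome, stood at 11.00, 10.71, 10.71 and 10.46 in Hep3B, at 10.35, 9.86, 10.45 and 9.82 in MHCC97H and at 11.07, 10.96, 10.79 and 10.54 in Huh7. Its change of -0.54 (SE 0.14, adjusted p = 0.0158) was nearly the same in the 3 lines, at -0.54, -0.53 and -0.53. PEX3 stood at 7.91, 7.15, 7.49 and 7.17 in Hep3B, at 7.21, 6.81, 7.46 and 6.88 in MHCC97H and at 8.21, 7.77, 8.20 and 7.51 in Huh7. In every line both libraries with AZD8055 were below both without it, and the change was -0.59 (SE 0.15, adjusted p = 0.0168). PEX5 (0.16) and CAT (-0.19) did not pass, and CAT with the combination differed by -0.57 in Hep3B, 0.47 in MHCC97H and -0.48 in Huh7.

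Among mitochondrial genes that did not pass in any treatment comparison, ACADM, the dehydrogenase of medium chains, stood at 9.12, 9.11, 9.64 and 9.32 in Hep3B, at 7.88, 7.88, 8.42 and 8.40 in MHCC97H and at 9.32, 8.91, 9.46 and 9.26 in Huh7. It was highest with compound #57 alone in 3 of 3 lines. HADHA, the large subunit of the trifunctional protein, stood at 10.77, 10.68, 10.72 and 10.50 in Hep3B, at 11.16, 10.89, 11.26 and 11.08 in MHCC97H and at 11.21, 10.71, 11.00 and 10.97 in Huh7. CPT2, which turns acylcarnitine back into acyl-CoA, differed with the combination by -0.27 in Hep3B and -0.52 in Huh7 and by 0.43 in MHCC97H. In the same order of lines, DECR1, the mitochondrial reductase for double bonds, differed by -0.05, 0.23 and 0.60, ECI1, an isomerase of double bonds, by 0.04, -0.02 and 0.50, and ECHS1 by -0.06, -0.76 and 0.09. ACADSB was higher with compound #57 in Hep3B by 1.33 and with the combination in MHCC97H by 1.18. ACAD9, which also serves the assembly of respiratory complex I, was lower with the combination in 3 of 3 lines, by values between -0.34 and -0.07.

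Of the peroxisome genes that did not pass, ECI2, an isomerase, stood at 9.48, 8.80, 10.08 and 9.10 in Hep3B, at 8.69, 8.43, 8.99 and 8.98 in MHCC97H and at 8.71, 7.86, 8.72 and 8.29 in Huh7, lowest with AZD8055 alone and highest with compound #57 alone in every line. SCP2, a thiolase and sterol carrier, differed with the combination by -0.53 in Hep3B, -0.26 in Huh7 and 0.46 in MHCC97H, and PEX13, a docking protein of the membrane, by -0.22, -0.64 and 0.24. PEX6 was higher with the combination in 3 of 3 lines, by 0.59, 0.51 and 1.15 (adjusted p = 0.0697), and PEX7, the second import receptor, by 0.21, 0.95 and 0.07. PEX14 differed with compound #57 by -0.98 in Hep3B, -0.44 in Huh7 and -0.09 in MHCC97H, and PEX19, the chaperone of peroxisomal membrane proteins, by -0.47, -0.33 and -0.09 (adjusted p = 0.182 and 0.195). Neither passed the test.

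With the combination 9 of 44 genes were higher in all 3 lines (20.5%, against 33.4% of all genes) and 8 were lower (18.2%, against 25.6%). With each library centred on its median, 8 were higher (18.2%, against 28.8% of all genes) and 11 lower (25%, against 29.9%). The median over the 44 genes stood at -0.11 in Hep3B, 0.32 in MHCC97H and -0.10 in Huh7, and 0.06, 0.09 and 0.04 over all genes. For mitochondrial oxidation it was 0.04, 0.37 and -0.07, for the peroxisome -0.17, 0.29 and -0.34, and for activation and uptake -1.47, 0.26 and -0.34. The fitted median of the peroxisome, -0.11, became 0.07 with Huh7 left out. The calls rested on the 3 lines together, as they did over all genes. Of the 12 genes, 3 passed without Hep3B (CPT1A was not among them), 10 without MHCC97H and 0 without Huh7. Each of these fits had 3 residual degrees of freedom, and 15.6%, 32.7% and 0.0953% of all genes passed in them. Without the term for cell line 0 of the 12 passed, as did 0 of all genes.

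The combination was also set against each drug alone. Against AZD8055, 0 of the 44 genes passed the limma test in either direction, as did 0% of all genes higher and 0% lower. An unadjusted p under 0.05 was reached by 11 of the 44 (25%, against 14.5% of all genes), and voom on whole reads passed 0. ACSL1 had the smallest adjusted p (0.161), with differences of 1.21 in Hep3B, 1.27 in Huh7 and 0.71 in MHCC97H. In the same order of lines, ACADSB was higher by 0.49, 0.71 and 0.69, and the differences of PEX14, a docking protein of peroxisomal import, were -0.35, -0.21 and -0.71.

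Against compound #57 alone, 1 of 44 genes rose (2.27%, against 2.62% of all genes) and 3 fell (6.82%, against 1.57%). ACOX3 rose by 0.78 (SE 0.17, adjusted p = 0.0403), at 0.48 in Hep3B, 1.0 in MHCC97H and 0.85 in Huh7. The genes that fell were HSD17B4 (-0.71, SE 0.13, adjusted p = 0.0283), ETFA (-0.56, SE 0.11, adjusted p = 0.0323) and SLC25A20 (-0.69, SE 0.16, adjusted p = 0.0494). SLC25A20 stood at 7.77, 7.56, 8.47 and 7.85 in Hep3B, at 6.92, 6.30, 7.21 and 6.81 in MHCC97H and at 8.90, 8.04, 9.43 and 8.40 in Huh7, highest with compound #57 alone in every line. The same combination libraries entered the comparison with untreated cells, so that the calls of ACOX3, HSD17B4 and ETFA there are not a second observation. None of these 4 genes passed without Hep3B, without MHCC97H, without Huh7 or without the term for cell line. Of all genes, 0.00866%, 2.87% and 0% passed with these lines left out, and 0 passed without the term.

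Of 76 further genes of these pathways listed by role, 61 were in the table. With the combination against untreated cells 16 of them rose (26.2%, against 20.9% of all genes) and 5 fell (8.2%, against 15.1%). With AZD8055 alone and compound #57 alone 0 passed, and 13 and 16 had an unadjusted p under 0.05 (21.3% and 26.2%, against 27.4% and 21.7% of all genes). The combination against AZD8055 gave 0 calls (6 unadjusted, 9.84% against 14.5%), and against compound #57 only DBI, the acyl-CoA binding protein, fell (-1.17). The median change over the 61 was 0.17 with the combination and 0.25 with compound #57. PPARA stood at 7.76, 7.80, 8.69 and 8.51 in Hep3B, at 7.61, 8.54, 8.50 and 9.01 in MHCC97H and at 8.52, 8.76, 9.28 and 8.72 in Huh7, lowest in untreated cells in 3 of 3 lines. It rose by 0.79 with the combination (SE 0.23, adjusted p = 0.0249) and was higher by 0.86 with compound #57 alone (adjusted p = 0.105).

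Among the other genes that rose with the combination were CRAT (0.93) and MLYCD (0.66) around the carnitine shuttle, PEX2 (0.37) and PEX10 (0.48) among the peroxins, ABCD4 and GSTK1, the lipase PNPLA2 (1.19), SLC27A1 (1.37), PDK2 (1.23), CREB3L3 (1.39) and TXNIP (2.28). PPARGC1B, a coactivator of mitochondrial genes, had the largest fall (-2.83, SE 0.42, adjusted p = 0.00296), beside HSD17B10, PCCB, SLC27A4 and DBI. PPARGC1A was not analysed here.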

How the data were processed

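The values were deposited as a table of log2 expression by gene and library. The authors' libraries were made from polyadenylated RNA with a stranded kit, and the submitters' notes name the genome build hg38. The aligner, the counting tool and the strand setting are not given in the sources used here. The deposited log2 values were turned back into whole reads: per 10000000 reads, at least 99.99% of the values of each library came out whole within a tolerance of 0.02. They equal log2(reads per 10000000 + 1), and 0.001, written for 0 reads, was set to 0. Of the gene names, 18 had become dates, and 4 symbols stood on 2 lines.

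All 11548 genes were fitted with limma 3.58.1 in R 4.3.3, with terms for treatment and cell line, empirical Bayes with a trend in mean level and Benjamini-Hochberg adjustment over all genes (threshold 0.05). The pairing comes from the cell line, which is shared by the 4 libraries of a row of the design. The fit has 6 residual degrees of freedom, and 3 where the response of MHCC97H was tested. It was run on simulated counts with known changes that were the same in every line, so lines that respond differently were not covered. Since each line and treatment has 1 library, p-values measure only the spread between these libraries across lines. Changes within a line carry 95% Clopper-Pearson intervals for counting error. Levels between genes were compared per kb of the canonical GENCODE 44 transcript. Promoters are from RefSeq (GRCh38.p14), searched with Python 3.11.15. MMUT was matched by its older symbol MUT.

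The members and the lists were chosen with earlier results of these data known. By rule, the genes given with values were those past the threshold in a treatment comparison, the 3 per direction with the largest smallest change in all lines, those changed at least 2-fold within a line, 1 per role, and the 3 per direction with the largest differences between lines. Further members are named to account for all 44. Alternatives were no cell line term, leaving out each cell line or treatment, the compared libraries alone, voom on whole reads, libraries centred on their medians, 10 added in place of 1 and a filter on low genes. Columns of per-sample values left unused numbered 0. Some of the further pathway genes are counted but not reported here by name.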

Additional observations from a re-analysis of the deposited data

Results flagged for a closer look

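The response of ACSL4 to the combination differed between MHCC97H and the other lines by a test of the difference itself. The change in MHCC97H (24 h) exceeded the mean change of Hep3B and Huh7 (48 h) by 2.282 on the log2 scale, and line and exposure time cannot be told apart. SLC27A2 differed with the combination in opposite directions by line, and its highest and lowest changes, in MHCC97H and Hep3B, lay 2.608 apart on the log2 scale. That difference was not tested, and the MHCC97H libraries behind it held 14 and 32 reads.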

How the results depend on the processing

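Without the replicate block, here the term for cell line, 0 genes passed with AZD8055, 0 with the combination against untreated cells and 0 with the combination against compound #57, in place of 2, 12 and 4. Over all genes 0 passed in each as well. With only the compared libraries the counts were 0, 7 and 1 (2, 1889 and 265 over all genes), on 2 residual degrees of freedom. Leaving out a cell line gave 0 to 1 genes with AZD8055 (at most 2.27%, against 0.944% of all genes) and 0 to 4 with compound #57 (9.09%, against 6.74%). It gave 0 to 15 with the combination against untreated cells (34.1%, against 32.7%) and 0 to 3 against compound #57 (6.82%, against 2.87%). The lowest counts with the combination came without Huh7, where 0.0953% of all genes passed against untreated cells, and the highest without MHCC97H. The combination against AZD8055 stayed at 0 in every alternative run. The mitochondrial median with compound #57, 0.30, was 0.23 with centred libraries, 0.38 as a mean over the genes and 0.21 to 0.28 with a line left out. ABCD3 in MHCC97H with compound #57 turned from 0.10 to -0.0077 with centred libraries. With voom, 13 genes passed for the combination in place of 12 (4144 in place of 4154 over all genes). Over all genes compound #57 alone went from 1 to 90 calls with voom, and the response of MHCC97H to the combination from 109 to 37 with centred libraries and 29 with voom. The largest shift of a within-line change by centring was 0.109. With 1 library per line and treatment, genes at low reads, such as SLC27A5 in Huh7, are limited by counting error. Since each line has its own untreated library, no value shows how far a repeat of it would differ.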
